A study of Rattus norvegicus with 9 samples.

Results

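Heat shock proteins are chaperones, proteins that hold or fold other proteins. The 10 genes described here encode the 2 cytosolic HSP90 proteins (Hsp90aa1, Hsp90ab1), a constitutive HSP70 (Hspa8), 2 HSP110-type partners of HSP70 (Hspa4, Hsph1), 2 J domain cochaperones (Dnaja1, Dnajb1), the mitochondrial chaperonin pair HSP60 and HSP10 (Hspd1, Hspe1) and the transcription factor Hsf1. They were chosen by gene symbol from what the proteins do, by a rule that used no measured value, and were 10 of 35979 gene units in the transcript tables. All 10 were among the 14250 units with a mean of at least 1 TPM (transcript abundance scaled to transcript length and library total) over the 9 libraries, and these were tested. Shares over all genes below are over these units, with or without a gene name.

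The cells were CD4+ T cells isolated from blood of SD rats aged 8-10 weeks, and their RNA was sequenced in 3 groups of 3 libraries titled normal, model and combination. The normal group is read here as untreated, from its title alone. The model group is read as rats with CIA, the abbreviation in the design text, which in a series on rheumatoid arthritis stands for collagen-induced arthritis. The combination group was CIA rats that received a compound combination over 4 weeks. The labels name neither the compounds nor their dose or vehicle, and they do not say how the CD4+ cells were isolated. They also do not say that each library came from a separate animal or pool, so p-values measure only the spread between these libraries. The file headers of the combination libraries carry other sample names (L1_1 and so on) than their titles, and what that naming stands for is not given in the sources used here.

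HSP90 and HSP70 work in sequence on many signalling proteins. J domain proteins bring unfolded clients to HSP70 and start its ATP hydrolysis, HSP110 proteins exchange its nucleotide, and HSP90 takes over clients such as kinases and steroid receptors; the kinase Lck, used by the T cell receptor, is a known HSP90 client. HSP60 and HSP10 form the folding chamber of the mitochondrial matrix. Hsf1 is held back by chaperones and, once freed by stress, binds heat shock elements, which are inverted repeats of GAA, in the promoters of many chaperone genes.

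Promoter windows (250 bases before to 50 after the start, RefSeq, GRCr8 build) were found for 8 of the 10 genes. Hsp90aa1 and Hsf1 had none. A heat shock element was searched as GAANNTTC or TTCNNGAA, each of which is its own reverse complement, so both strands are covered, and overlapping matches were counted. Of 33469 promoter windows of the same length, 5305 (15.85%) held at least 1 match. Of the 8 windows, 6 did. A run of 3 repeats, in which 2 matches share the middle one, was found in 0.8% of all windows and in 5 of the 8, those of Hspa8, Hsph1, Dnaja1, Hspd1 and Hspe1. The Hspd1 and Hspe1 windows hold the same bases there, as given below, so these 2 are not separate finds. The Dnajb1 window held 2 matches outside such a run, and those of Hsp90ab1 and Hspa4 held none, which says only that these letters are not in these windows. The stretches below are shown because they carry matches before the start of these genes. A further stretch of Hspa8 (-233 to -181 from the start, 2 matches) and of Hsph1 (-125 to -78, 1 match) is not shown. The run of 3 in Dnaja1 lies after its start and is not shown, so its stretch has a single match. The stretches shown are printed with the matching bases in capitals, 5′ to 3′ on the gene's strand:
Hspa8 (chr8:50080439-50080491, plus strand): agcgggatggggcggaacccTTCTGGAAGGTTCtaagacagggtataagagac
Hsph1 (chr12:10427312-10427364, plus strand): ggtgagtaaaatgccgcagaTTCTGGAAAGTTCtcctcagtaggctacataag
Dnaja1 (chr5:60638203-60638250, plus strand): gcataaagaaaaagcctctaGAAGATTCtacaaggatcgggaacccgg
Dnajb1 (chr19:41431142-41431172, minus strand): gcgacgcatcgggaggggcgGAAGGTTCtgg
Hspe1 (chr9:64084242-64084299, plus strand): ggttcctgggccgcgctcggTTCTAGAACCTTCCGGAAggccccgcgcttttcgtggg

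Hspd1 and Hspe1 lie head to head. Their RefSeq starts (64084037 and 64084327 on chromosome 9) are 290 bases apart on opposite strands, and their windows share 211 bases. The 3 overlapping matches in the Hspe1 stretch, which begins 85 bases before the Hspe1 start, are therefore also in the Hspd1 window, read there as the reverse complement:
Hspd1 (chr9:64084242-64084287, minus strand): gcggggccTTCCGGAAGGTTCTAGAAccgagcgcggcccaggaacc

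Depth was 7.52 to 10.1 gigabases of aligned sequence per library, of which 86.7% to 89.0% lay in listed transcripts. Each value below is in TPM, which is scaled per transcript length and can be compared between genes. T cell identity genes (11 of 12 with a value; Cd5 had none under that name) summed to 3581 to 4337 TPM in normal, 2719 to 3653 in model and 3239 to 3588 in combination libraries. From normal to model 10 of the 11 had a negative difference and none passed, with Cd4 at a mean of 222 TPM in normal, 121 in model and 121 in combination libraries. Lat, an adaptor of the T cell receptor, was the 1 that passed from normal to combination, and it fell (log2 difference -0.79, adjusted p = 0.0478). Markers of other blood cells differed in level between groups. Monocyte markers (7 of 9 with a value; Itgam and Mpeg1 had none under that name) summed to 29.8 to 180 TPM in normal, 74.2 to 199 in model and 364 to 732 in combination libraries. Platelet markers (8 of 8 with a value) summed to 14.0 to 35.6, 21.9 to 41.1 and 76.9 to 125 TPM in the same order. Erythroid markers (6 of 9 with a value) summed to 58.9 to 1122 TPM in normal, 2408 to 16210 in model and 261 to 865 in combination libraries. CD8 and NK cell markers summed to 101 to 163, 51.1 to 74.2 and 79.0 to 108 TPM, B cell markers to 10.7 to 37.7, 6.72 to 15.4 and 11.0 to 20.6, and neutrophil markers to 14.5 to 34.0, 0.522 to 8.77 and 4.99 to 8.47. Monocyte and platelet sums set the combination libraries apart from both other groups. Erythroid sums and CD8 and NK cell sums set the model libraries apart, and neutrophil sums the normal ones, while T cell identity and B cell sums overlapped. The part of these lists in the differences given below was not tested. In bulk RNA, fewer cells of a type and less RNA per cell cannot be told apart.

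The 10 genes differed widely in level. Hsp90ab1 (mean 702 TPM over the 9 libraries) and Hspa8 (469 TPM) stood above the rest, and every library of either gene was above every library of the other 8. Next came Hspa4 (111 TPM), Hspe1 (98.1), Dnajb1 (81.3), Hspd1 (66.5) and Dnaja1 (57.1), whose ranges over libraries overlapped from neighbour to neighbour, then Hsf1 (40.2), Hsp90aa1 as named (18.7) and Hsph1 (13.0). Together they summed to 1689 to 1844 TPM in normal, 1678 to 2196 in model and 1095 to 1469 in combination libraries, and the highest combination library was below the lowest of the other groups. Hsp90ab1 and Hspa8 made up 69.4% to 75.0% of that sum in normal, 72.2% to 74.9% in model and 60.6% to 65.2% in combination libraries.

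**Figure D1:**
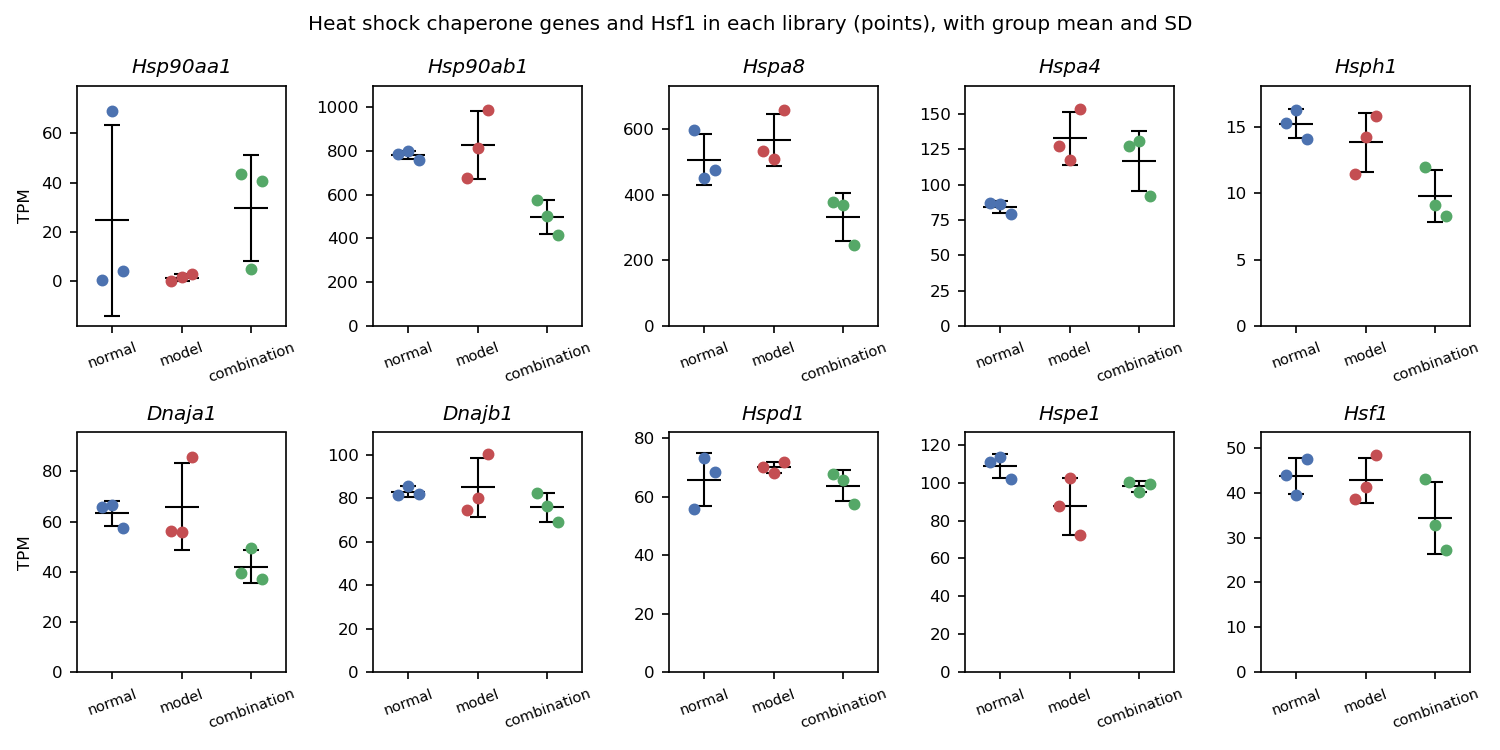
TPM of each gene in each library (points) by group, with the group mean and SD of 3 libraries (bars), on linear axes that differ between panels. The combination libraries of Hsp90ab1, Hspa8 and Dnaja1 sit below all libraries of the other groups, Hspa4 is lowest in the normal libraries, and the SD bar of Hsp90aa1 reaches below 0 because 1 normal library is far above the other 2.

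The plot of TPM by library shows several patterns. In 7 genes (Hsp90ab1, Hspa8, Dnaja1, Hsph1, Dnajb1, Hspd1 and Hsf1) the lowest group mean was that of the combination group, and for Dnajb1, Hspd1 and Hsf1 it lay closer to the other means. Hspa4 had its lowest mean in the normal group. Dnajb1 and Hsf1 overlapped between groups in all 3 comparisons, and Hspd1 and Hspe1 in 2 of 3 each.

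Combination against model asks what the compound treatment changed in CIA rats. Hsp90ab1, the constitutive HSP90, fell to 0.604-fold, and it was the only 1 of the 10 genes past an adjusted p of 0.05 in any comparison. Over all 14250 genes, 4.05% passed in either direction in this comparison and 1.97% passed as lower, and 1 call in 10 genes is not read as a result about the group. The 577 genes called were 296 higher and 281 lower. Without haemoglobin, mitochondrial and ribosomal protein genes in the total they were 900 higher and 476 lower. Of the 10 genes, 8 had a negative difference, against 47.4% of all genes, with a median log2 difference of -0.26 against 0.029 over all genes. At an unadjusted limma p below 0.05 there were 5, against 26.0% of all genes. The 5 include Hsp90aa1 as named, which was higher (log2 difference 3.33) and, as given below, could not be measured as a gene of its own. On locus sums there were 4.

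Hsp90ab1 (chromosome 9, 17817721 to 17823243, plus strand, rn6) was at 786, 799 and 760 TPM in normal, 677, 816 and 988 in model and 574, 501 and 417 in combination libraries. The combination libraries were the lowest 3 of the 9, and the normal and model libraries overlapped. From 827 ± 155 TPM (SD, n = 3) in model to 497 ± 78.7 (SD, n = 3) in combination libraries, the log2 difference was -0.73 ± 0.17 (SE, 95% interval -1.10 to -0.35, limma adjusted p = 0.0484). The adjusted p lay between 0.0171 and 0.132 over the alternatives and was above 0.05 whichever of the 9 libraries was left out (0.0525 to 0.132), so the call rests on the full set. It was also above 0.05 with no filter on low values (0.0858), with reference transcripts only (0.0691), with only the groups compared (0.127), without the intensity trend (0.061) and with a replicate block (0.104).

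Hspa8, the constitutive cytosolic HSP70, was at 598, 451 and 475 TPM in normal, 535, 509 and 658 in model and 379, 369 and 248 in combination libraries. Its pattern was like that of Hsp90ab1, with the combination libraries as the lowest 3 and the other groups overlapping. The log2 difference between combination and model was -0.79 ± 0.20 (SE, 95% interval -1.23 to -0.34), with an adjusted p of 0.0569, which does not pass. It passed on FPKM (0.0257), with median-ratio scaling (0.0247), with array weights (0.0487), and with haemoglobin, mitochondrial and ribosomal protein genes left out of the total (0.0391).

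The symbol Hspa8 stands for 2 loci in the rn6 tables. The multi-exon gene on chromosome 8 (44989339 to 44993263, plus strand) held a mean of 411 TPM, all in an assembled transcript of 9 exons while the reference transcript was listed at 0. A single-exon copy on chromosome 5 (99031013 to 99033107, minus strand) held 58.1 TPM, and reads could be split between the copies by the counting. Both were lower in every combination library than in any model library. The chromosome 8 locus had 502 ± 70.8 TPM in model and 288 ± 70.5 in combination libraries (SD, n = 3), and the chromosome 5 copy 64.8 ± 8.51 and 44.3 ± 2.60.

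Dnaja1, a J domain protein that delivers clients to HSP70, was at 65.7, 66.6 and 57.5 TPM in normal, 56.2, 56.0 and 85.9 in model and 39.6, 49.4 and 37.0 in combination libraries. The combination libraries were again the lowest 3. The log2 difference from model was -0.62 ± 0.20 (SE, adjusted p = 0.0965). These values are the reference transcript (chromosome 5, 57028467 to 57039378, plus strand), since its assembled locus also carries the microRNA Mir207 and the assembled transcripts there were not assigned to Dnaja1. The reference transcript held 53.3% of the locus, which as a whole had 97.0 ± 17.8 TPM in normal, 133 ± 38.3 in model and 91.1 ± 6.49 in combination libraries (SD, n = 3). On the locus sum the normal and combination libraries overlapped, and the log2 difference of combination from normal was -0.076 in place of -0.59.

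Hsph1, an HSP110 protein and nucleotide exchange factor of HSP70 (chromosome 12, 6322668 to 6341902, minus strand), was at 15.3, 16.3 and 14.1 TPM in normal, 11.5, 14.3 and 15.8 in model and 12.0, 9.13 and 8.28 in combination libraries. The combination libraries lay below all normal libraries, while 1 of them was above the lowest model library. Its log2 difference from model was -0.46 ± 0.18 (SE, adjusted p = 0.155).

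Among the 10 genes, 4 had every combination library below every model library (Hsp90ab1, Hspa8, Dnaja1 and Hspd1), against 13.0% of all genes tested. In the other direction 1 did, Hsp90aa1 as named, against 13.7%. Hsf1 (chromosome 7, 117538523 to 117565478, plus strand) was at 43.9, 39.6 and 47.5 TPM in normal, 38.6, 41.2 and 48.3 in model and 43.0, 32.7 and 27.2 in combination libraries. Its groups overlapped in all 3 comparisons, and its log2 difference from model to combination was -0.33 ± 0.19 (SE, adjusted p = 0.306). The locus held 22 listed transcripts, and 92.4% of its TPM was in assembled ones, so the split among isoforms is an estimate.

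**Figure D2:**
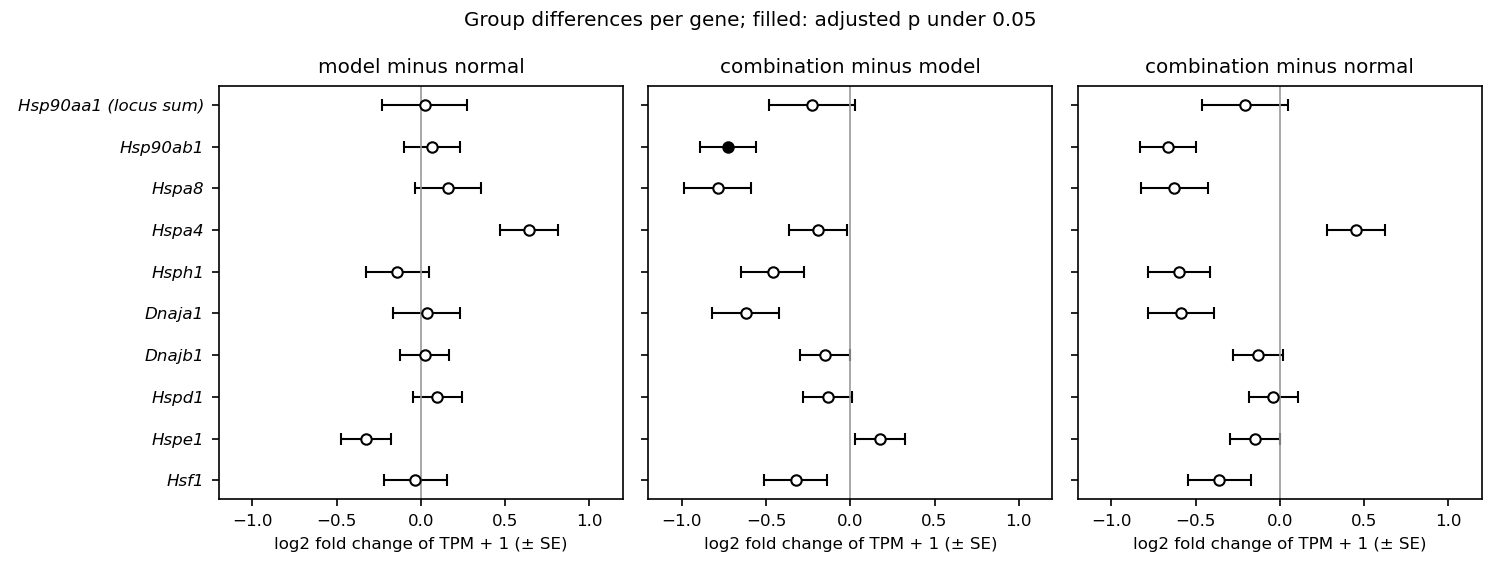
log2 fold change of TPM + 1 with its standard error (bars) for each gene in the 3 comparisons, from limma over all genes, with Hsp90aa1 as the sum of its assembled locus. The 1 filled point (adjusted p under 0.05) is Hsp90ab1 in combination minus model, at -0.73, and the points of Hspa8, Hsph1 and Dnaja1 lie left of 0 in both comparisons with the combination group.

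Model against normal asks what differed in CD4+ T cells of CIA rats. None of the 10 genes passed, against 4.09% of all genes tested (583). At an unadjusted p below 0.05 there was 1, Hspa4, against 26.4% of all genes. The median log2 difference of the 10 was 0.028, against -0.005 over all genes, and 4 of 10 were negative, against 50.5% of all genes. The sign of these small differences depended on the scaling, with 7 of 10 negative on FPKM, and 7 of 10 with haemoglobin, mitochondrial and ribosomal protein genes left out of the total. The median over all genes moved too, to -0.044 on FPKM and -0.0758 without those genes. The medians of the 10 were then -0.0396 and -0.0464.

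Hspa4, another HSP110-type exchange factor of HSP70 (chromosome 10, 38601624 to 38642397, minus strand), was at 87.1, 86.5 and 79.4 TPM in normal, 128, 118 and 154 in model and 127, 131 and 92.2 in combination libraries. Every model library, and every combination library, was above every normal library. Hspa4 was the 1 gene of the 10 whose model libraries lay wholly above the normal ones, against 18.6% of all genes, and none lay wholly below, against 14.1%. The log2 difference of model from normal was 0.64 ± 0.17 (SE, 95% interval 0.26 to 1.03, adjusted p = 0.0653). It passed under 6 of the alternatives: on FPKM (0.0319), with median-ratio scaling (0.0336), without haemoglobin, mitochondrial and ribosomal protein genes (0.0402), with array weights (0.0204), without model replicate 2 (0.0314) and without combination replicate 3 (0.0426).

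Hspa4 also differed in which transcript held its level. The reference transcript of 4520 bases held on average 42.7%, 36.3% and 40.4% of the gene's TPM in normal, model and combination libraries. A shorter assembled transcript of 2644 bases held 27.5% to 39.5% in normal, 44.7% to 60.9% in model and 35.9% to 46.6% in combination libraries. The model libraries were therefore above the normal ones in this share too, and on the reference transcript alone the log2 difference was 0.40 (adjusted p = 0.217) in place of 0.64.

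The mitochondrial pair passed in no comparison. Hspd1, which encodes HSP60 (reference transcript on the minus strand of chromosome 9, starting at 61690956 in rn6), was at 55.6, 73.1 and 68.5 TPM in normal, 70.0, 68.0 and 71.9 in model and 67.8, 65.8 and 57.6 in combination libraries. The combination libraries were all below the model ones by a narrow gap, and the log2 difference was -0.14 ± 0.15 (SE, adjusted p = 0.597). Its reference transcript held 26.2% of the gene in model replicate 3 and 55.8% in normal replicate 1, against 92.2% to 94.5% in the other 7 libraries, so on reference transcripts alone the sign of the difference turned in all 3 comparisons.

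Hspe1, which encodes HSP10 (plus strand, from 61690989 to 61694599), was at 111, 114 and 102 TPM in normal, 87.5, 102 and 72.5 in model and 100.2, 94.9 and 99.1 in combination libraries. The combination libraries lay below the normal ones, and the model libraries spanned both. Its log2 difference from normal to model was -0.32 ± 0.15 (SE, adjusted p = 0.2) and from model to combination 0.18 ± 0.15 (adjusted p = 0.49). All of its level was in an assembled transcript of 798 bases, with the reference transcript of 267 bases listed at 0.

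In rn6 the starts of the pair are 33 bases apart, and first exons of listed transcripts overlap by 409 bases on opposite strands. The labels do not say that the libraries keep strand, so reads from that stretch cannot be told apart. The ratio of Hspe1 to Hspd1 was 2.00, 1.55 and 1.48 in normal, 1.25, 1.51 and 1.01 in model and 1.48, 1.44 and 1.72 in combination libraries. The groups overlapped in that ratio, and the lowest value was in model replicate 3, where the Hspd1 level was mostly in assembled transcripts.

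Dnajb1, a J domain protein that works with HSP70 in disaggregation (chromosome 19, 24747178 to 24750919, plus strand), was at 81.2, 85.7 and 82.0 TPM in normal, 74.4, 79.9 and 100.4 in model and 82.3, 76.2 and 69.1 in combination libraries. The 3 groups overlapped in each comparison. The log2 differences were 0.022 for model minus normal (adjusted p = 0.942), -0.15 for combination minus model (0.557) and -0.13 for combination minus normal (0.619).

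Combination against normal shares the combination libraries with the comparison above and the normal libraries with the other, so its values are not a separate test. None of the 10 genes passed, against 3.64% of all genes tested (518), and 5 had an unadjusted p below 0.05 against 25.5% of all genes. Hsp90ab1 (-0.66 ± 0.17, adjusted p = 0.0584), Hspa8 (-0.63 ± 0.20, 0.0966), Hsph1 (-0.60 ± 0.18, 0.0922) and Dnaja1 (-0.59 ± 0.20, 0.112) had the most negative log2 differences (± SE), and Hspa4 was positive (0.45 ± 0.17, 0.144). Every combination library was below every normal library for 5 genes (Hsp90ab1, Hspa8, Hsph1, Dnaja1 and Hspe1), against 17.8% of all genes, and above for 1, Hspa4, against 17.7%. Hsp90ab1 passed on FPKM and under 6 further alternatives, with adjusted p between 0.00838 and 0.0492.

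Hsp90aa1, the stress-inducible HSP90, could not be measured as a gene of its own. Its single reference transcript (chromosome 6, 135045363 to 135049728, minus strand, 10 exons) was at 0.711, 69.2 and 4.28 TPM in normal, 0.137, 1.61 and 2.83 in model and 43.4, 5.17 and 40.9 in combination libraries. Within the normal group the values differed by a factor that no other of the 10 genes came near, and the log2 difference of 3.33 ± 1.27 (SE) between combination and model had an adjusted p of 0.141. The rn6 tables hold a second gene model, LOC103692716 (135107271 to 135112775), in the same assembled locus. Of the exons, 9 have the same length at a single offset of 62424 bases, and 8 of the 9 assembled transcripts there have exons in both copies.

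The whole locus had 124, 145 and 89.3 TPM in normal, 147, 81.7 and 140 in model and 102, 88.5 and 115 in combination libraries. The 3 groups overlapped, with means of 119 ± 28.0, 123 ± 35.9 and 102 ± 13.3 TPM (SD, n = 3). The log2 differences of the locus sum were 0.022 for model minus normal, -0.23 for combination minus model and -0.21 for combination minus normal, each of the opposite sign to the named transcript. The share of the locus in the named transcript went from 0.0931% in model replicate 1 to 47.8% in normal replicate 2. In libraries where it was high, LOC103692716 or the assembled transcripts were low: normal replicate 2 had the lowest LOC103692716 value and combination replicates 1 and 3 the lowest assembled sums (6.12 and 9.32 TPM).

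**Figure D3:**
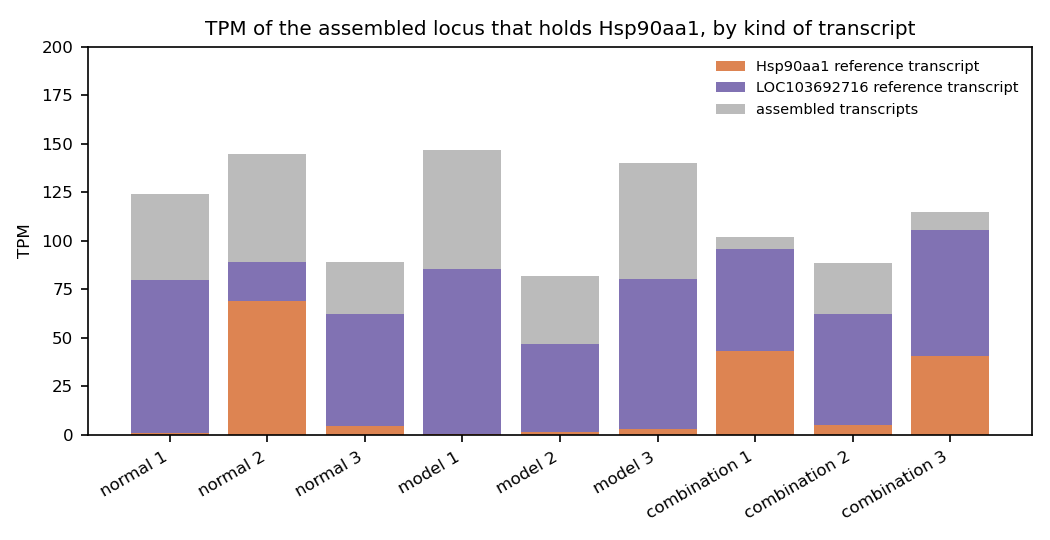
Stacked TPM of the rn6 locus that holds Hsp90aa1, 1 bar per library, split into the Hsp90aa1 reference transcript, the LOC103692716 reference transcript and the assembled transcripts. Bar heights of 81.7 to 147 TPM overlap between groups, while the Hsp90aa1 segment ranges from 0.137 TPM (model replicate 1) to 69.2 TPM (normal replicate 2).

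The bars by kind of transcript show that the heights varied less than the split. Genes were also ranked by how closely their centred log2(TPM + 1) followed a gene of the 10 over the 9 libraries, as a description. For Hspd1, which varied little (SD 0.135), the closest were mrpl11 (mean absolute difference 0.058), Cct2 (0.063), Nono (0.069) and Tmed2 (0.073), among 6273 candidates. For Hsp90aa1 as named (SD 2.20) the closest were LOC100909878 (1.09), AABR07053580.1 (1.23), RT1-A2 (1.28) and Crb3 (1.31), among 178. Beside the SD of each gene, neither set is read as a close match.

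The partners of these chaperones were counted in lists of the same system. For scale, of all 14250 genes tested 338 rose and 245 fell from normal to model. From model to combination 296 rose and 281 fell, and from normal to combination 289 rose and 229 fell. Of 18 HSP90 cochaperones, all tested, 1 call was lower in model than in normal libraries and 1 was higher in combination than in model libraries. Both were Ahsa2, a relative of the HSP90 ATPase activator Aha1, which was listed at 0 in all model libraries and had 1.73 ± 0.53 TPM in normal and 1.55 ± 0.225 in combination libraries (SD, n = 3; adjusted p = 0.016 and 0.0247). Ahsa2 met the filter only through the groups in which it had a value, and in these tables reference transcripts of abundant genes such as Hspa8 are also listed at 0, so its 2 calls are not read as a change in level. The median log2 difference of the list was 0.187 from normal to model and -0.105 from model to combination, against -0.005 and 0.029 over all genes.

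Of 11 HSP70 cochaperones, 10 were tested. Hspbp1, a nucleotide exchange factor of HSP70, rose from 49.7 ± 4.67 TPM in normal to 79.8 ± 6.84 in model libraries (log2 difference 0.67, adjusted p = 0.0435) and fell to 38.5 ± 4.60 in combination libraries (-1.04, adjusted p = 0.0247; SD, n = 3). It was the 1 gene of the list to pass in either comparison, and the list's medians were 0.008 and -0.306. Stub1, the ubiquitin ligase CHIP that binds HSP70 and HSP90, was lower in combination (8.55 ± 3.49 TPM) than in normal libraries (22.3 ± 1.03; log2 difference -1.35, adjusted p = 0.0368).

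Of 25 further J domain proteins, 24 were tested, and 3 rose from normal to model: Dnaja4 (10.2 to 23.4 TPM), Dnajb5 (16.2 to 50.5 TPM) and Dnajc11 (23.3 to 36.8 TPM), with adjusted p of 0.0359, 0.0415 and 0.0498. Dnajb5 was the 1 that fell from model to combination, back to 16.5 TPM (adjusted p = 0.046), and its model libraries were uneven (SD 26.0 TPM). The list's medians were 0.27 and -0.13. Of the other HSP70 and HSP110 genes 5 of 10 were tested and none passed, with 5 below the filter or without a value. The stress-inducible Hspa1a and Hspa1b, near-identical copies between which reads can be split, were low, at 3.19 and 2.96 TPM in normal, 1.19 and 1.16 in model and 2.55 and 2.59 in combination libraries on average.

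The cytosolic chaperonin TRiC/CCT (8 of 8 tested) and prefoldin (6 of 6), which hands actin and tubulin to it, had no gene past the threshold in any comparison. The medians of CCT were 0.015 and -0.129. Of 14 mitochondrial chaperones and proteases 13 were tested. Grpel1, the exchange factor of mitochondrial HSP70, rose from 42.6 ± 3.56 to 73.9 ± 9.48 TPM from normal to model (adjusted p = 0.0279), and none passed from model to combination. Clpb, a mitochondrial disaggregase, was lower in combination (4.78 ± 0.367 TPM) than in normal libraries (10.2 ± 1.77; adjusted p = 0.047; SD, n = 3). Small heat shock proteins (2 of 5 tested) and the relatives and regulators of Hsf1 (3 of 5 tested) had none.

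Chaperones of another compartment, the endoplasmic reticulum, were counted for contrast. Of 14, all tested, 4 rose from normal to model and 3 of these fell from model to combination, with list medians of 0.399 and -0.51. Of all 14250 genes tested, 338 rose and 281 fell in these comparisons. Calr, which encodes calreticulin, had 389 ± 81.4 TPM in normal, 1064 ± 262 in model and 485 ± 65.5 in combination libraries (SD, n = 3), and rose (adjusted p = 0.0198) and fell (0.0342). Manf and Sdf2l1 did the same, and Dnajb11 rose. Whether that list and the 10 genes differ was not tested. Immediate early genes summed to 4148 to 4580 TPM in normal, 4972 to 11280 in model and 3378 to 4605 in combination libraries, and their part in these differences was not tested.

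The plot by chaperone system shows the filled points on the right from normal to model, apart from Ahsa2, and on the left from model to combination, again apart from Ahsa2. The lists differ in size and share no gene with the 10, but some share genes with each other. Hspa9 is in both the HSP70 and HSP110 list and the mitochondrial list. Dnaja3 and Dnajc19 are in both the J domain and the mitochondrial list.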

How the data were processed

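CD4+ T cell RNA from 9 rat libraries (3 normal, 3 model, 3 combination) was analysed. Per the labels' protocols, Trizol-isolated total RNA went into NEBNext Ultra RNA libraries. Per the submitters' processing notes bcl2fastq, HISAT2 and the rn6 build were used, without versions. StringTie 1.3.3b then quantified a fixed, merged transcript set, per the file headers. The authors deposited coverage, FPKM and TPM per transcript as text attributes, 1 table a library. Here the TPM of the 80092 transcripts was summed into 35979 gene units. Of these, 18646 carry a name: named reference transcripts by symbol, plus assembled transcripts of loci with only that name. The rest are loci without a name, unnamed reference transcripts of named loci, and assembled transcripts of loci with several names. Units with a mean of at least 1 TPM (14250) were tested with limma 3.58.1 in R 4.3.3 on log2(TPM + 1), so fold changes understate low genes, over all 9 libraries (6 residual degrees of freedom, 3.21 prior, with the trend on mean level), Benjamini-Hochberg adjustment over all units and a two-sided threshold of 0.05. The script was tested on simulated data. No read counts were used, so depth is given as aligned bases.

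The rule for the 10 genes uses no measured value, but they and the lists were chosen with earlier results of these data known. All 10 genes are named, and of each related list the genes past the threshold, at most 4 per comparison by smallest p. Some genes of the lists are not reported here. Likeness was ranked over symbols with a mean of at least 10 TPM that vary enough to be compared. Alternatives changed the pseudocount, filter, unit, scaling, transcript set, samples, trend, weights and replicate block, and left out each library. Promoters are RefSeq GRCr8, and rn6 positions are the authors'.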

Additional observations from a re-analysis of the deposited data

How the results depend on the processing

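With 3 libraries a group and array weights from 0.329 to 2.73, these calls move with the setting. Genes called from normal to model (583) numbered 80 with no filter on low values, 1062 on FPKM, 1235 with median-ratio scaling, 1050 without haemoglobin, mitochondrial and ribosomal protein genes, 167 with reference transcripts only, 71 with only the groups compared, 2406 with array weights and 37 to 2682 with 1 library left out, the highest without model replicate 2. From model to combination (577) they numbered 236, 1308, 1460, 1376, 135, 28, 1539 and 39 to 1211 in that order, and 379 with the filter at 5 TPM. From normal to combination (518) they numbered 162, 1180, 1405, 1240, 88, 1233, 3684 and 23 to 1485, and 306 at 5 TPM. Of the 10 genes, from normal to model 1 was called on FPKM, with median-ratio scaling, without those genes and with array weights, and 0 to 1 with a library left out. From model to combination 2 were called under each of those 4 settings, and 0 with no filter, reference transcripts only, only the groups compared, no intensity trend or any library left out. From normal to combination 4 were called on FPKM, 3 with median-ratio scaling, 2 without those genes, 1 with only the groups compared, 4 with array weights and 0 to 1 with a library left out. The genes tested numbered 12532 on FPKM, 14238 with median-ratio scaling and 15391 without those genes. With only the groups compared or array weights they numbered 14250. From normal to combination, 3684 of these 14250 were called with array weights. The counts among the 10 are therefore not read as a result about them. With the replicate number as a block (replicate block), 87, 12 and 21 genes were called and 0 of the 10 from model to combination. Same-numbered libraries share only a number, with residual correlations of -0.12 to 0.066, and 2 of 9 libraries correlated best with their own number. Signs turned for the large differences of Hsp90aa1 as named and for small ones of other genes, and the cause was not tested. These log2 values were, for Hsp90aa1 as a locus sum, 0.022, -0.23 and -0.21 (model minus normal, combination minus model, combination minus normal), for Hspd1 on reference transcripts -0.24, 0.46 and 0.22, and for Hsf1 on reference transcripts 0.79 (model minus normal) and 0.20 (combination minus normal). The rest concern model minus normal unless named. On FPKM, Hsp90ab1 was at -0.0041, Dnaja1 at -0.033 and Dnajb1 at -0.046. Without haemoglobin, mitochondrial and ribosomal protein genes they were at -0.010, -0.040 and -0.053. Dnajb1 was at -0.0029 with array weights and Hspa8 at -0.011 on reference transcripts. That Hspa8 value is the single-exon chromosome 5 copy alone, as the chromosome 8 reference transcript is listed at 0. With 1 library left out Hsp90ab1 ranged from -0.072 to 0.20, Dnaja1 from -0.17 to 0.14, Dnajb1 from -0.10 to 0.11, Hspd1 from -0.017 to 0.18 (combination minus normal -0.15 to 0.042) and Hsf1 from -0.12 to 0.034. Over the 10 genes and 3 comparisons, 248 values with 1 library left out kept their sign and side of the threshold, 9 turned, 4 came past it and 9 fell short of it. Hspe1 had no value on reference transcripts, where it is listed at 0.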
